A study of Bactrocera dorsalis with 6 samples.

Results

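The unigenes described here are those that the oriental fruit fly, Bactrocera dorsalis, expressed in pupae with little or no signal in any other life stage sampled. A unigene is a group of transcripts that the assembler joined as isoforms of 1 gene. The members were chosen from the deposited expression values themselves: a unigene was taken when its pupal FPKM (fragments per kilobase of transcript, scaled to the sequencing depth of the library, a level per length) was at least 11 with the other 5 libraries all below 4, or at least 26 with the other 5 all below 11. Of 10799 unigenes, 110 met this rule, which is 1.02% of all unigenes, and they are called pupal unigenes from here on. Since the rule used these levels, the height of the pupal value above the others is a description of the members and carries no test.

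The flies came from eggs of the laboratory colony Punador and received no treatment, and all 6 libraries share this origin. The immature stages were reared on a liquid artificial diet, while adults were kept in cages with sugar water and yeast, with the sexes apart until mating. RNA was extracted on each day of collection from eggs, larvae, pupae, virgin adult males and virgin adult females, pooled within a stage in equal amounts and sequenced as 1 library per stage. Mated females, collected after males and females had been caged together, gave the remaining library and were older than the virgin adults, so age and mating cannot be told apart. The virgin female sample is written here as the female-labelled library, because its isoform shares of doublesex (dsx), the sex-specifically spliced regulator of sexual development, were 21.8 percentage points away from the male shares and 85.4 points away from the mated female shares. The sex of this library is thus uncertain. Where the virgin libraries are set against mated females, sex cannot be told apart from age and mating either. With 1 library per stage there is no replicate, no difference between stages was tested, and a pupal value is an average over the days of pupal life. In such pools of insects, a change in the number of cells that express a gene and a change in RNA per cell cannot be told apart.

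In flies the pupal stage is when larval tissues break down and the adult body is built inside the puparium. Pulses of the steroid hormone ecdysone time the process, and the epidermis secretes a pupal and then an adult cuticle, made of chitin and cuticle proteins, which are assembled outside the cell and later hardened. Cytochromes P450 are oxidative enzymes with roles in both hormone synthesis and detoxification, and those of the mitochondrial group, which include the CYP12 family, work inside mitochondria. The name tables used here allow only a part of the members to be placed in such processes.

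Expected counts, the number of fragments that the authors' estimator assigned to a unigene, summed to 7857995 in pupae and to between 7386960 and 9905262 in the 6 libraries. The 110 pupal unigenes took 219997 of the pupal counts, or 2.80% (95% Wilson interval 2.79 to 2.81). In the other libraries they took between 0.0203% of the counts, in mated females, and 0.0351%, in larvae. All intervals given here cover counting error only. The contribution was concentrated in few members, as the 5 highest held 39.3% and the 15 highest 70.9% of the pupal counts of the whole group. The highest member ranked 15 among all unigenes of the pupal library, and 4 members were among its 100 highest.

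Pupal levels spread from 11.17 to 3187 FPKM, with a median of 47.2 and quartiles of 26.8 and 150.1. Of the members, 83 stood at 26 FPKM or more, 36 at 100 or more and 5 at 1000 or more. Of the 83, 42 had every other library below 4, while 41 had at least 1 other library between 4 and 11. The remaining 27 members lay between 11 and 26 in pupae. The counts behind these levels ran from 30 to 31730 with a median of 574, so the counting error is widest for the lowest members.

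**Figure D1:**
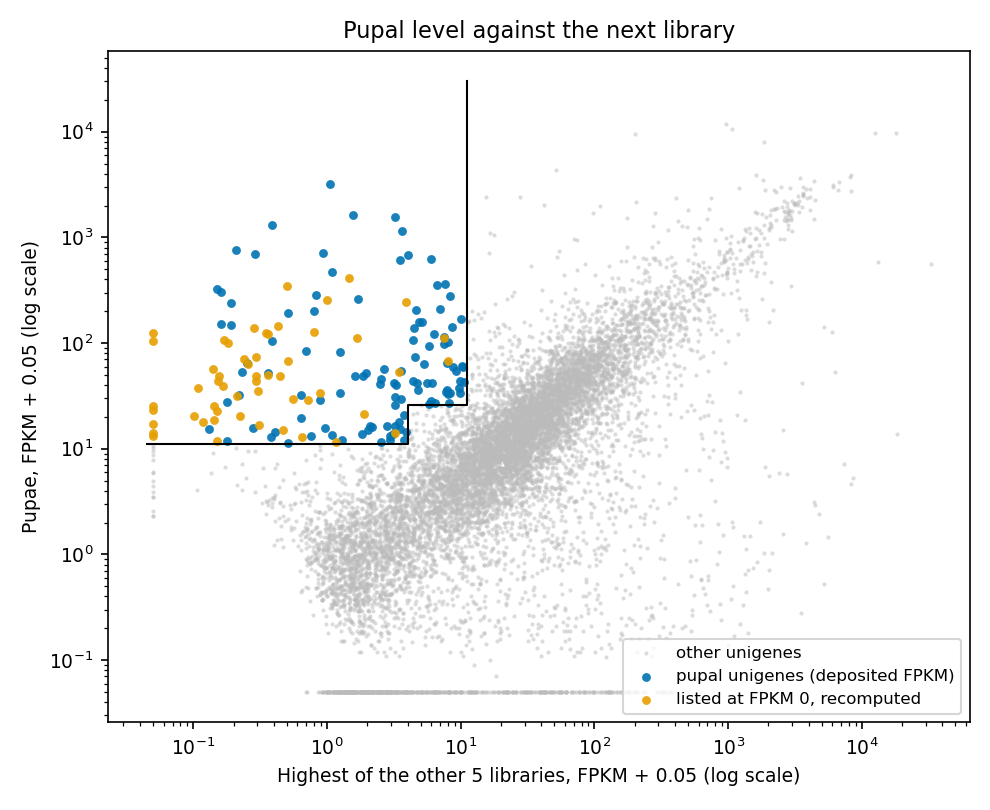
Each point is a unigene, with the highest FPKM of the 5 other libraries on the x axis and the pupal FPKM on the y axis, both with 0.05 added and on log scales; the black line marks the bounds of the rule. The 110 pupal unigenes (blue) lie above and to the left of the line, and 53 unigenes listed at FPKM 0 in the deposited table (orange, FPKM recomputed from isoform counts and lengths) fall in the same region.

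"Pupae only" holds for these unigenes as a matter of degree. The median level was 0.61 FPKM in eggs, 1.25 in larvae, 1.29 in males, 1.02 in the female-labelled library and 0.215 in mated females, and the highest value of any member outside pupae was 10.45, in larvae. In 30 of the 110, all 5 other libraries were below 1 FPKM. A count of 0 was found for 14 members in larvae, 24 in males, 16 in the female-labelled library and 34 in mated females, and for 0 members in eggs. A count of 0 allows up to 3 counts. Among the 9596 unigenes with a deposited FPKM above 0, counts of 0 made up 4.68% in larvae, 4.44% in males, 4.35% in the female-labelled library and 8.31% in mated females. The rule's upper bounds on these libraries favour counts of 0 among the members, so nothing is read from the difference.

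The second highest library was larvae for 31 members, males for 25, eggs for 24, the female-labelled library for 18 and mated females for 12. The ratio of the pupal value to the next library, with 1 FPKM added to both, had a median of 12.6 and ran from 2.79 to 1586. It was 100 or more for 19 members and below 10 for 46.

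**Figure D2:**
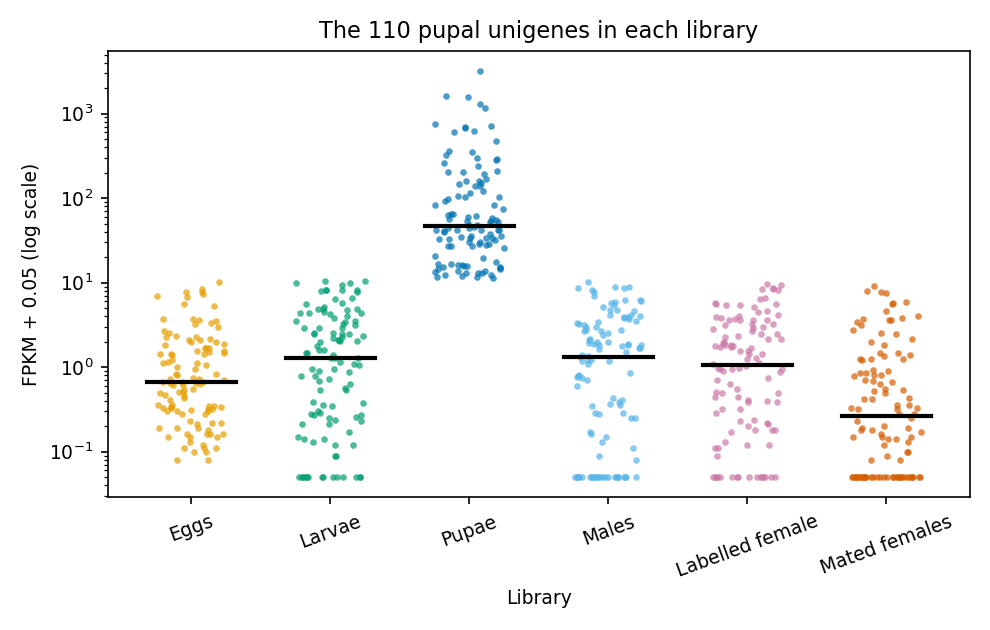
FPKM of the 110 pupal unigenes in each of the 6 libraries, with 0.05 added and on a log scale; each point is a unigene, the points are spread sideways for legibility, and the black bar is the median. The pupal values lie from 11.17 to 3187 and those of every other library below 11, with the lowest median, 0.215, in mated females.

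That every member had egg counts follows from the deposited table. In it, 1203 unigenes are listed at FPKM 0 in all 6 libraries although counts are given, and these were exactly the 1203 unigenes with 0 counts in eggs. Where a unigene had several isoforms, the length behind its FPKM matched the egg mix of isoforms within 1 percent for 3478 of 4210 unigenes, or 82.6%, against between 29.9% and 38.2% for the mixes of the other libraries. A unigene without egg counts was thus listed at 0 and could not meet the rule. The deposited pupal FPKM of members with several isoforms also rests on these lengths. Recomputed from isoform counts and lengths, it moved by more than 1.5 times in 0 members. Among the members, 21 had a single egg count and 34 had 3 or fewer, and the median was 8 counts.

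The FPKM of the 1203 unigenes was therefore recomputed from isoform counts and isoform lengths, and 53 of them met the same rule, which brings the pupal unigenes to 163, or 1.51% of all unigenes. The added 53 reached between 11.5 and 416 FPKM in pupae, with a median of 44.2 and counts from 58 to 5252, and 35 stood at 26 or more and 14 at 100 or more. Their highest other library had a median of 0.245 FPKM, while that of the 110 was 3.15. Eggs were at 0 in all 53 and above 0 in all 110 by construction, so part of this contrast is built in. In 44 of the 53 the next library was below 1 FPKM, and 7 had counts in pupae alone. The unigene with the largest count of those 7, comp28666_c0 (D. melanogaster match FBgn0040358), had 2515 counts in pupae and 0 in each other library, at a recomputed 125 FPKM. For comp27129_c0 (match FBgn0036619), the highest of the 53, the recomputed value was 416 FPKM in pupae from 5252 counts, with 20 counts in males, 20 in the female-labelled library and 0 in eggs, larvae and mated females. The second highest, comp14531_c0, carries a predicted signal peptide, the stretch that routes a protein out of the cell, and stood at 344 FPKM from 1374 counts with 2 counts in the female-labelled library and 1 in mated females. With comp14502_c0, which has a signal peptide and a DUF1676 domain, a domain of unknown function in insect proteins, the recomputed pupal value was 99.1 FPKM from 834 counts against 1 count in larvae and 1 in mated females. The values below refer to the 110 members unless these 53 are named.

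The highest member in both level and ratio was comp25856_c0. It stood at 3187 FPKM in pupae (31730 counts, 95% exact Poisson interval 31382 to 32081) against 0.61 in eggs, 1.01 in larvae, 0.08 in males, 0.36 in the female-labelled library and 0.88 in mated females, or 1 to 12 counts in each of these libraries. Its pupal value was 1586 times that of larvae after 1 FPKM was added to both. The tables pair it with the D. melanogaster gene FBgn0051876 and give no name.

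Next in level was comp27224_c0, with 1619 FPKM in pupae, 0.56 in eggs, 0.31 in larvae, 1.18 in males, 1.5 in the female-labelled library and 0.48 in mated females. The values of comp23677_c0 (match FBgn0032125) were 1569 in pupae, 0.27 in eggs, 0.48 in larvae, 1.87 in males, 3.15 in the female-labelled library and 0.84 in mated females. Recomputed from isoform counts and lengths, the pupal values were 1467 for comp27224_c0 and 2133 for comp23677_c0, so the deposited order was reversed. In comp24732_c0 the pupal value was 1305 FPKM, and the rest were 0.16 in eggs, 0.24 in larvae, 0.34 in males, 0.19 in the female-labelled library and 0 in mated females. These 3 thus had fewer than 4 FPKM in every library but pupae, and the last of them had at most 2 counts in any of those libraries beside 6037 counts in pupae. The fifth, comp21637_c0, had 1161 FPKM in pupae, 0.28 in eggs, 0.68 in larvae, 3.25 in males, 3.59 in the female-labelled library and 0.09 in mated females. It showed a pattern that recurs below, with a trace in the virgin libraries that was lower in mated females.

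The next members of the 15 highest lay between 324 and 757 FPKM in pupae. For comp24816_c0 the pupal value was 757 FPKM from 5165 counts, and eggs, larvae and males had 1 count each and the female-labelled library and mated females 0. Its ratio of 654, with that of comp25856_c0 and the 975 of comp24732_c0, was among the 3 largest. With comp14329_c0 (match FBgn0036677, signal peptide predicted) the value was 714 in pupae and at most 0.89, in larvae. In comp21363_c0 it was 702 in pupae and at most 0.24, with 0 counts in larvae. These 3 unigenes were below 1 FPKM in all other libraries.

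A trace in the virgin adults, with less in mated females, was seen again in the members that follow. For comp30242_c0 (match FBgn0000639), 676 FPKM in pupae from 18725 counts stood beside 3.81 in males, 3.95 in the female-labelled library and 0.05 in mated females. In comp22338_c0 (match FBgn0034443) the values were 623 in pupae, 5.89 in males, 5.71 in the female-labelled library, 0.61 in mated females and 4.64 in larvae. For comp26134_c0 (match FBgn0028939) they were 613 in pupae, 3.44 in males, 2.31 in the female-labelled library and 0.04 in mated females. All 3 had at most 0.42 FPKM in eggs. By contrast, comp24465_c0 (match FBgn0029573), at 472 FPKM in pupae, was highest elsewhere in larvae, at 1.03. For comp27685_c0, a transcript matched to both FBgn0037411 and FBgn0037412, the pupal value was 324 FPKM from 9689 counts, and no other library exceeded 0.10 FPKM.

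**Figure D3:**
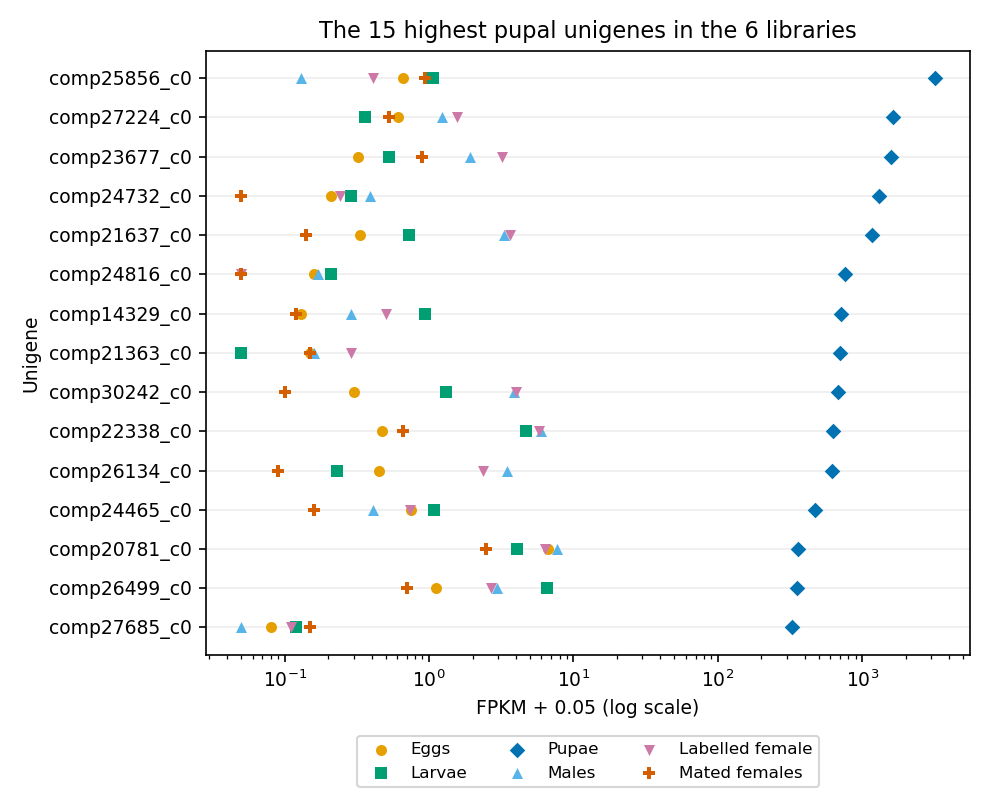
FPKM of the 15 pupal unigenes with the highest pupal level in each of the 6 libraries, with 0.05 added and on a log scale; each symbol is 1 library, and a symbol at 0.05 is a value of 0. Pupal values lie between 324 and 3187, and no symbol of another library exceeds 7.60 FPKM before the addition, the male value of CYP304A1 (comp20781_c0).

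Of the 12 members with a name, few relate to cuticle formation. The name tables were held only in part, so members without a name could not be placed here. Cpr49Ad (comp23689_c0), a cuticle protein of the family with a chitin-binding Rebers and Riddiford motif, had 59.4 FPKM in pupae, 1.47 in eggs, 8.09 in larvae, 8.67 in males, 8.61 in the female-labelled library and 0 in mated females. The 427 pupal counts thus stood beside 69 in the female-labelled library and 0 in mated females. The gene m (miniature, comp29850_c0), which in D. melanogaster acts in cuticle patterning, had 27.0 FPKM in pupae, 0.76 in eggs, 8.05 in larvae, 0.03 in males, 0.15 in the female-labelled library and 0.03 in mated females. Its next library was larvae, with 172 counts against 645 in pupae, and adults had no more than 4 counts.

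The name tables used here hold 6 unigenes named as cuticle proteins, and Cpr49Ad was the member among them. Larval cuticle protein 8 (comp14767_c0) was higher in pupae, at 1688 FPKM, but stood at 96.8 in males and 66.7 in the female-labelled library, so the rule did not take it. Cpr49Ab (comp27724_c0) had 104.9 FPKM in pupae, 101.5 in males, 76.1 in the female-labelled library and 0 in mated females. Cpr100A (comp28916_c2) was highest in males, at 721 FPKM against 201 in pupae and 6.72 in mated females. The other 2, Flexible cuticle protein 12 and Larval/pupal cuticle protein H1C, were highest in larvae. Of 7 unigenes with a chitin-related name or domain, 0 were members. With members at 1.02% of all unigenes, nothing is read from counts in lists this short. Of the 7, obst-A (comp20829_c0), a chitin-binding matrix protein, at 608 FPKM, and obst-B (comp18484_c0), at 369, were highest in pupae. Cpr49Ab, Cpr100A, obst-A and obst-B thus each had at least 76.1 FPKM in both virgin libraries beside their pupal level.

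Enzyme families with a list of their own were the cytochromes P450, the glutathione S-transferases and the UDP-glycosyltransferases. Of these, P450 had the most members, 7 of its 92 unigenes or 7.61%, beside 1.02% of all unigenes. With most members unnamed, other enzyme families could not be compared. The highest was CYP304A1 (comp20781_c0), with 360 FPKM in pupae, 6.65 in eggs, 4.01 in larvae, 7.60 in males, 6.27 in the female-labelled library and 2.41 in mated females. It was the only P450 member with more than 3 FPKM in another library, since the other 6 had at most 2.90 outside pupae. Of those, CYP49A1 (comp29470_c1), named for a mitochondrial P450, had 13.0 FPKM in pupae and between 0.75 and 2.90 elsewhere, while comp29470_c0, from the same assembly component, had 263 in pupae and 245 in larvae. CYP6D5 (comp31540_c0), a P450 of the family best known from detoxification, had 11.17 FPKM from 37 counts, with 2 counts in eggs and 0 in larvae and all adult libraries.

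The other 4 P450 members all belonged to the CYP12 family, a grouping made after the values were seen. CYP12A4 (comp26936_c0) had 64.5 FPKM in pupae from 771 counts, with 0.06 in eggs, 0.09 in larvae, 0.20 in males, 0.07 in the female-labelled library and 0 in mated females. CYP12B2 (comp29210_c0) had 52.1 FPKM in pupae, 0.25 in eggs, 0.31 in mated females and 0 in larvae, males and the female-labelled library. CYP12A2 (comp25222_c0) had 12.9 FPKM in pupae and at most 0.33 elsewhere, and CYP12A5 (comp25998_c0) had 11.7 in pupae and at most 0.13 elsewhere. All 4 were below 1 FPKM in all libraries but pupae. CYP12A4, CYP12A2 and CYP12A5 were all matched to FBgn0038680 and FBgn0038681. Whether fragments from similar stretches were divided among them was not tested.

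The same family held unigenes of another kind. Of 11 CYP12 unigenes, 4 were pupal (36.4%), beside 1.02% of all unigenes, and the other 7 had their highest value in larvae or adults. As the family was singled out after the values were seen, nothing is read from this share. CYP12B1 (comp29384_c0) was high in all libraries, from 250 FPKM in eggs to 927 in the female-labelled library, with 633 in pupae. A second CYP12B2 unigene (comp30399_c0) had 147 FPKM in larvae and 28.9 in pupae, which was its lowest value. A second CYP12A5 unigene (comp26899_c0), listed at FPKM 0, had recomputed values of 12.1 in males, 10.6 in the female-labelled library, 10.8 in mated females and 0.0778 in pupae, from 1 pupal count. Unigenes named alike thus took different patterns, with the pupal CYP12B2 and CYP12A5 at 0 counts in males, where the second unigene of each name had 861 and 198.

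**Figure D4:**
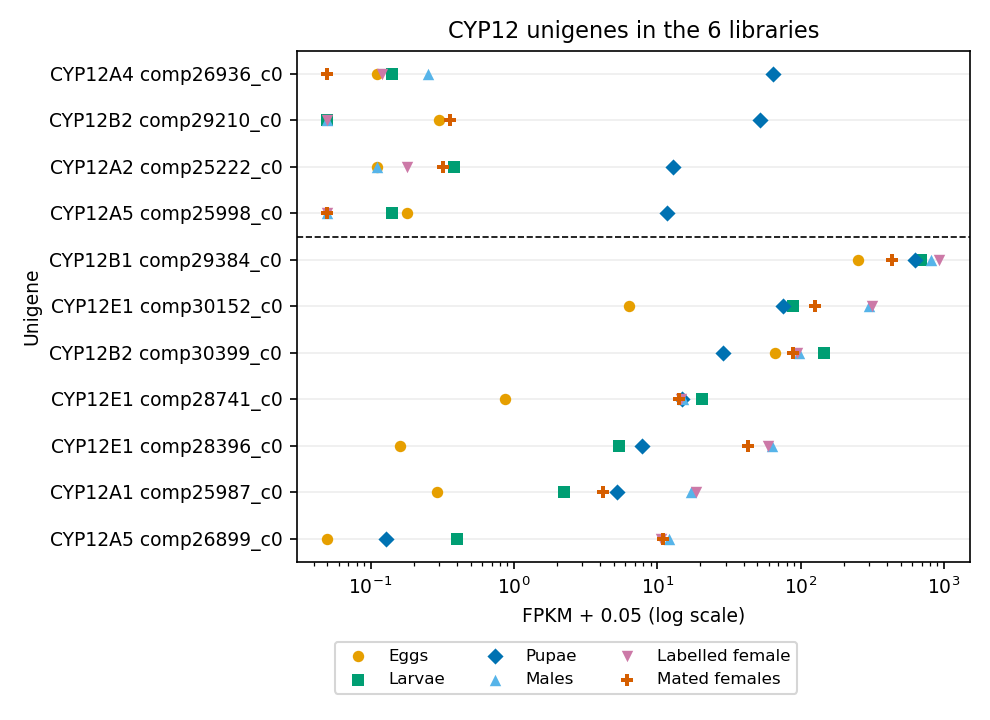
FPKM of the 11 CYP12 unigenes in each of the 6 libraries, with 0.05 added and on a log scale; the 4 above the dashed line are pupal unigenes, and a symbol at 0.05 is a value of 0. In the upper 4 the pupal symbol stands between 11.7 and 64.5 FPKM with all others below 1, and in the lower 7 it lies below the highest of the other symbols.

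None of the P450s of ecdysteroid metabolism in the list was a member. CYP307A1 and CYP307A2 were also sought and were not in the list. The 5 in the list were CYP302A1 (comp27663_c0), CYP306A1 (comp26490_c0), CYP314A1 (comp26792_c0) and CYP315A1 (comp28589_c0), which act in ecdysone synthesis, and CYP18A1 (comp26490_c1), which inactivates the hormone. Their pupal values were 4.77, 2.62, 5.20, 4.01 and 21.2 FPKM in that order. CYP314A1, CYP315A1 and CYP18A1 were highest in eggs, at 31.4, 24.7 and 26 FPKM, and CYP302A1 and CYP306A1 in mated females, at 15.4 and 6.36. Of the juvenile hormone genes, Jhe (comp28974_c0), the esterase that breaks this hormone down, was highest in pupae, but at 5.92 FPKM it lay below the rule, and 0 of the 3 in the list were members. Members made up 1.02% of all unigenes, so nothing is read from counts of 0 in lists of 5 and 3.

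Of 141 unigenes in the study's list for CncC and Keap1, an activator of stress response genes and its inhibitor, 4 were members, or 2.84%, beside 1.02% of all unigenes. Besides Cpr49Ad and m these were CG9360 (comp26499_c0), annotated as an oxidoreductase, and CG15202 (comp22923_c0). CG9360 was among the 15 highest members, with 351 FPKM in pupae, 1.06 in eggs, 6.54 in larvae, 2.91 in males, 2.62 in the female-labelled library and 0.65 in mated females. CG15202 had 73.8 FPKM in pupae, 0.30 in eggs, 1.34 in larvae, 4.11 in males, 4.49 in the female-labelled library and 3.66 in mated females. CG9360 was next highest in larvae and CG15202 in the adults, so the members of this list did not share a second stage. The lists of glutathione S-transferases (34 unigenes), UDP-glycosyltransferases (23) and sex determination genes (76) held 0 members. With members at 1.02% of all unigenes, lists of this size may well hold 0, so nothing is read from it. The UDP-glycosyltransferase that met the rule after recomputation, comp19619_c0, had 15.1 FPKM in pupae from 129 counts and at most 4 counts elsewhere, and CG9509 (comp28505_c0) was at the bound with 11.5.

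The last named member matched Fibrinogen-like protein 1 (comp14335_c0), with a signal peptide and the fibrinogen C-terminal domain, which in insects is found in secreted lectins. It had 34.7 FPKM in pupae, 1.81 in eggs, 4.24 in larvae, 6.20 in males, 5.54 in the female-labelled library and 7.69 in mated females. A further member with a signal peptide, comp11524_c0 (match FBgn0030326), had 27.0 FPKM in pupae, 6.34 in larvae, 2.22 in eggs, 1.79 in males, 0.85 in the female-labelled library and 0 in mated females. In all, 12 of the 110 members carried a name in the tables used here, 62 a name or a D. melanogaster match, and 48 neither, so the named members are a small and not a random part of the group.

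The adult libraries were compared with each other among the members. At least 1 FPKM was found in both virgin libraries for 53 members, and in 22 of these (41.5%) the mated female value was under 0.25 times the value of each. Over all 7905 unigenes with at least 1 FPKM in both virgin libraries the share was 15.5%, and over the 2238 of these with all 3 adult libraries below 11 FPKM, the upper limit that the rule sets for members, it was 29.4%. The rule used these adult values as upper bounds and many of them rest on a few counts, so the shares are a description. Sex, age and mating cannot be told apart in these contrasts. An example is comp25023_c0 (match FBgn0036602), with 140 FPKM in pupae, 8.57 in males, 8.38 in the female-labelled library and 0 in mated females, from 50, 43 and 0 counts. Another is comp28956_c0, with 54.3 in pupae, 8.88 in males, 9.21 in the female-labelled library and 0.80 in mated females. The opposite was seen in 9 of the 53, in which mated females were above both virgin libraries, as in comp22954_c0 with 102 FPKM in pupae, 5.42 in males, 3.91 in the female-labelled library and 7.92 in mated females. Between males and the female-labelled library, no member differed by more than 2.27 FPKM.

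Remainders were also found in the other stages. A level of 4 FPKM or more was reached by 26 members in larvae, 21 in a virgin library, 9 in eggs and 8 in mated females. The highest egg value was that of comp22797_c0 (match FBgn0051954), with 170 FPKM in pupae, 10.04 in eggs, 8.24 in larvae, 1.45 in males, 1.21 in the female-labelled library and 0 in mated females. In comp28535_c0 (match FBgn0042098), 160 FPKM in pupae stood beside 1.49 in eggs, 4.83 in larvae and 0 in all 3 adult libraries. At the other end, 5 members had counts in pupae and eggs only, of which comp24314_c0 (match FBgn0030826) and comp23076_c0 (match FBgn0036617) were the highest, with 151 and 147 FPKM in pupae from 1021 and 794 counts and a single egg count each.

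Isoform number was not used by the rule. Of the 110 members, 35 had 2 or more assembled isoforms, or 31.8%, while 40.4% of all unigenes did. The latter include the unigenes listed at FPKM 0, which could not be members. Among unigenes taken by the same rule for larvae and for mated females (136 unigenes, 1.26% of all, and 35, 0.324%) the shares were 29.4% and 31.4%. The 35 members held 93 isoforms, of which 89 were highest in pupae and 56 met the rule on their own. Isoform counts add up to those of the unigene, so the rule favours isoforms highest in pupae, and these counts only describe the members. The leading isoform of these 35 held a median of 64.1% of the pupal counts, with 90% or more in 2 members and under 60% in 14, and the other 75 members had a single isoform.

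The member with the most isoforms, comp24933_c0, had 10, all highest in pupae. As a unigene it stood at 211 FPKM in pupae, 6.98 in eggs, 4.82 in larvae, 3.68 in males, 3.11 in the female-labelled library and 2.10 in mated females. Recomputed from isoform counts and lengths, its pupal value was 270 FPKM. Its leading isoform had 27.0% of the pupal counts, 80.9 FPKM in pupae and at most 0.86 elsewhere, whereas most egg counts lay on an isoform with 12.3 FPKM in pupae and 4.57 in eggs. Of the 4 isoforms of comp27224_c0, the leading one had 61.7% of the pupal counts and 876 FPKM, and the 2 with 367 and 29.3 FPKM in pupae had 0 counts in all other libraries. In comp28780_c0, with 5 isoforms, a single isoform had 78.4% of the pupal counts at 63.2 FPKM and 0 counts in all other libraries. Another isoform of this unigene had 1.98 FPKM in pupae, 3.85 in males, 4.70 in the female-labelled library and 2.94 in mated females. The adult remainder of comp28780_c0 thus lay mainly on an isoform other than the pupal one. Of the other 3 members with an isoform highest outside pupae, comp25150_c0 and comp27064_c0 had one with 0 in pupae and 1.45 and 1.65 FPKM in males, and comp27697_c0 had one with 1.90 in pupae and 2.40 in mated females.

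The recovered length of the members had a median of 1343 bases (quartiles 922 and 1891), between that of all unigenes with a length, 1808 bases over 9596, and that of the larval unigenes, 994 bases. The mated female unigenes had a median of 1157 bases. The larval unigenes took 1.30% of the counts of their own library at a median of 42.0 FPKM and a median ratio of 10.2 to the next library, and the 35 mated female unigenes took 2.04% at 128.7 FPKM and a ratio of 99.4. The same rule took 29 unigenes for eggs and 0 for males and for the female-labelled library. Lengths of assembled transcripts depend on how completely each was assembled, which was not tested.

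The bounds divided unigenes with like values. Just inside the bound at 11 FPKM were comp31540_c0 at 11.17, comp23571_c0 at 11.55 and CYP12A5 (comp25998_c0) at 11.69, and just outside comp24243_c0 at 10.63, comp29781_c0 at 10.50 and comp28170_c0 at 10.36. Just inside the bound at 26 were comp30122_c0 at 26.73, m (comp29850_c0) at 27.00 and comp11524_c0 at 27.02, and just outside comp30413_c0 at 25.84, comp26454_c0 at 25.42 and comp19841_c0 at 25.30. For the next library, the limit of 4 FPKM had comp20466_c0 at 3.84, comp27697_c0 at 3.73 and comp28745_c1 at 3.70 inside, and comp22760_c0 at 4.06, comp18197_c0 at 4.2 and comp29925_c0 at 4.21 outside. The limit of 11 had comp23780_c0 at 10.45, comp20885_c0 at 10.41 and comp27928_c0 at 10.20 inside, and comp18833_c0 at 11.13, comp24644_c0 at 11.31 and comp24599_c0 at 11.32 outside. Of the unigenes left out by these limits, comp24644_c0 had 158 FPKM in pupae, above the upper quartile of the members.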

How the data were processed

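Deposited expected counts and FPKM for 10799 unigenes and 20666 isoforms in 6 libraries were used. The authors assembled the reads de novo with Trinity, removed transcripts of low abundance or without a predicted open reading frame, mapped each library with bowtie 0.12.7, estimated expected counts with RSEM (version 1.2.0 in the submitters' processing notes) and scaled the deposited FPKM with TMM factors. No genome was used, and 0 columns lacked a sample. Names and D. melanogaster or Swiss-Prot matches came from the supplementary lists of the paper, some held only in part. TMM factors and lengths were recovered from the ratio of counts to FPKM (factors from 0.868 in larvae to 1.30 in eggs, 0.923 in pupae). Poisson and Wilson intervals are at the 95% level, with counts rounded first. The recovery of factors and lengths was tested on simulated counts with a single length per unigene and no isoforms. The recomputation of FPKM from isoforms was not tested in this way. The members and lists were chosen with earlier results of these data known. Unigenes named were the 15 highest, all with a name or domain, the 3 with the most isoforms, the 3 with the largest ratio and the 3 on each side of each bound. All others, among them those with a particular pattern and those listed at FPKM 0, were named after their values were seen. Calculations used Python 3.11.15, pandas 2.3.3, scipy 1.17.1 and, for size factors, DESeq2 1.42.0 in R 4.3.3.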

Additional observations from a re-analysis of the deposited data

How the results depend on the processing

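The count of 110 pupal unigenes was 42 with only the stricter pair of bounds (at least 26 FPKM against below 4), 216 with at least 11 against below 11, and 168 when unigene FPKM was the sum over isoforms, which gives the unigenes listed at 0 a value and kept 109 of the 110. With recomputed FPKM for the unigenes listed at 0 it was 163, and within the Poisson intervals of all 6 counts 83 remained. Without TMM factors it was 111, of which 101 were shared, with size factors of DESeq2 110, and without the female-labelled library in the rule 112. Rounding, a minimum of 10 counts and thinning gave between 109 and 110. The share of the pupal counts, 2.80%, was 3.18% with the recomputed unigenes added and 2.87% without TMM factors. The median ratio of 12.6 lay between 10.8 and 16.5 under all alternatives run for it. For the 27 unigenes whose ratio was followed, 1 ratio without TMM factors and 16 with a pseudocount of 0.1 moved beyond their counting interval. That 0 changed direction was fixed in advance by the bounds of the rule and is no measure of stability. The cause of these shifts beyond the settings' own construction was not tested. No paired analysis was possible because each stage has 1 library, and no replicate could be left out. The depth limits single values outside pupae, most of which rest on a few counts.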

Other observations

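Several members were matched to D. melanogaster genes whose FlyBase numbers follow each other closely, a grouping made after the values were seen. From FBgn0037405 to FBgn0037430 the pairs used here hold 14 unigenes, of which 4 were members (comp8493_c0, comp27685_c0, comp25313_c0 and comp23063_c0) and 1 more met the rule with recomputed FPKM (comp19229_c0). Of the 14, 9 were highest in pupae and 13 were below 1 FPKM in both virgin libraries. Over all 10799 unigenes, 1.02% were members, 17.4% were highest in pupae and 14.4% were below 1 FPKM in both virgin libraries, but as the run was picked for its values no more than these values is given. The members had 14.4, 324, 33.8 and 107 FPKM in pupae in the order given. Other unigenes of this run were high in larvae as well: comp27993_c1 had 556 FPKM in pupae and 309 in larvae, comp26575_c0 had 632 and 282, and comp20954_c0 had 593 and 302. The exception to the low virgin values, comp27158_c0, was at 568 FPKM or more in every library.

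Some members shared an assembly component with another unigene. For comp30339_c2, with 237 FPKM in pupae, 2 neighbours in the component were assembled: comp30339_c1, which was listed at 0 and had 104 FPKM after recomputation with counts in pupae alone, and comp30339_c0, with 23.8 FPKM in pupae and 5.61 in mated females. In comp27863_c2, with 192 FPKM in pupae and 0 counts in larvae, males and mated females, the neighbour comp27863_c4 had 74.5 FPKM in pupae and 122 in eggs. Among the unigenes listed at 0, comp21440_c0 and comp21440_c1 both met the rule, with 25.2 and 37.9 FPKM, as did comp22623_c0 and comp22623_c1, with 16.7 and 29.1.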
